A study of Mus musculus with 30 samples.

Results

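The genes that encode the protein part of the cytosolic ribosome were followed through the livers of mouse offspring from exposed dams. They were taken by symbol: every row whose name starts with Rpl or Rps and a digit, with Rplp0, Rplp1, Rplp2 and Rpsa. Of 108 such rows, 9 with names marked as pseudogenes, 10 S6 kinase genes and 3 genes with a mean under 1 CPM (counts scaled to a common library size) were left out. This gave 86 genes of 17990 rows: 46 of the large subunit, 31 of the small subunit, 7 paralogs or retrocopies (Rpl22l1, Rps27l, Rpl36al, Rpl7l1, Rpl6l, Rpl37rt and Rps27rt) and 2 other genes with the prefix, Rps19bp1 and Rps23rg1. The 77 genes of the subunits are called core genes below. At the lower limit, Rps23rg1 (1.56 CPM) and Rps19bp1 (10.9 CPM) were kept, and Rpl32l (0.391 CPM), Rpl3l (0.143 CPM) and Rpl39l (0.0331 CPM) fell outside. Fau and Rack1 encode ribosomal proteins under other names and were examined apart.

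Groups of 8 dams of the outbred ICR stock were dosed through drinking water, at 10 ng/mL of a compound in 0.001% ethanol. The daily dose was set to 5 µg/kg body weight and lasted some 40 days, over pregnancy and lactation. The compounds were bisphenol S (BPS), its positional isomer 2,4-BPS, the isopropyl ether of BPS (BPSIP) and estradiol (E2), the main endogenous oestrogen. Control dams drank the same ethanol without a compound, so all groups shared the vehicle. Livers of female and male offspring were taken at 10 weeks of age, and each of the 10 groups held 3 libraries. Per the labels a library came from a single liver and the animals from litters of different dams, so p values here rest on the spread between livers within groups. That spread was estimated jointly over all groups of a fit.

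The cytosolic ribosome is built from ribosomal RNA and a set of small, mostly basic proteins that are needed in equal numbers, and their genes are among the most strongly transcribed of any cell. Most of their messages begin with an oligopyrimidine tract, through which growth signals by way of mTOR and LARP1 hold back or release translation. In the liver, which makes most plasma proteins, ribosome number follows feeding, growth and regeneration. Several of these proteins are also known outside the ribosome, such as RPL5 and RPL11, which bind MDM2, and RPS6, the substrate of the S6 kinases.

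Libraries held 29711711 to 37719069 counts, and all 86 genes passed the filter on low counts in each fit. The 8 hepatocyte markers, Alb and Ttr among them, were all present and summed to between 60000 and 132000 CPM in every group. The 4 Y-linked genes summed to 84.7 to 95.3 CPM in the libraries labelled male control, against 131 to 169 CPM in exposed males and at most 0.543 CPM in females. The group is therefore called by its label, and each direction drawn from it carries this doubt.

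Per length, the ribosomal protein genes had a median of 249.3 FPKM (fragments scaled by gene length and library total) against 1.465 over all rows. Their transcripts were short, with a median length of 808 bases (346 to 5136) against 3287 over all rows. The highest mean levels in FPKM were those of Rpl41 (1240), which encodes the smallest ribosomal protein, Rplp1 (910), a stalk protein that recruits elongation factors, Rpl28 (760), Rpl10 (639) and Rps29 (602). At the other end stood Rpl21 (7.63 FPKM), Rpl34 (11.4) and Rpl29 (16.2), although their proteins are needed in the same number. Ribosomal protein genes have many processed copies in the genome, and reads may be split among them: the row of the pseudogene Rpl34-ps1 held 76.8 CPM, more than the 14 CPM of Rpl34 itself. Levels of single genes, and most of all of Rpl21, Rpl26, Rpl34, Rps2 and the paralogs, carry that uncertainty.

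Promoters in RefSeq (GRCm38.p6) matched 65 of the 86 genes, and 27025 symbols in all, taking the first entry of each. In the window of 250 bases before to 50 after the start, an oligopyrimidine start (a C followed by at least 4 C or T on the sense strand, beginning within 10 bases of the annotated start) was found in 35 of 65 (53.8%), against 30.8% of all promoters. CCGGAAG, on either strand, was found in 24 of 65 (36.9%) against 9.12%. GGGCGG occurred in 39 (60%) against 35.9%, AAGATGGC in 5 (7.69%) against 2.88% and TATAAA in 6 (9.23%) against 14.2%, both strands searched for each; no overlap between these motifs was removed. The windows below, 60 bases before to 20 after the start, belong to the 6 core genes with a promoter entry whose group means spanned over 2-fold, and to 3 genes of the panel that followed the others (Rplp0, Rps6 and Rplp2). Capitals mark the first oligopyrimidine tract that the search met, which need not be the longest or the nearest to the start (a later, longer run in Rps18 stays in lower case). No capitals mean only that it was not found near the annotated start.
Rps2 (chr17:24720003-24720082, plus strand): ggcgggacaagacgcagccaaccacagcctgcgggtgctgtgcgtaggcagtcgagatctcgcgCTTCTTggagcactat
Rpl26 (chr11:68901506-68901585, plus strand): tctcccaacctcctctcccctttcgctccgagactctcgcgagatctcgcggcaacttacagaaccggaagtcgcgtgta
Rps26 (chr10:128626487-128626566, minus strand): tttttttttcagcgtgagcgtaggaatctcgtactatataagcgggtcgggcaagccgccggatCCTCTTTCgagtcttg
Rps18 (chr17:33955646-33955725, minus strand): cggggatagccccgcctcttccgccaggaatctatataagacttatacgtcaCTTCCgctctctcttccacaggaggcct
Rpl35a (chr16:33056393-33056472, plus strand): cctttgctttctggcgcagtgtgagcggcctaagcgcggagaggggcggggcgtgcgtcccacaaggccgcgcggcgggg
Rpl34 (chr3:130730379-130730458, minus strand): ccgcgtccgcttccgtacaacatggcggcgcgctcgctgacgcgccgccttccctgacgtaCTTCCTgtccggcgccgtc
Rplp0 (chr5:115559407-115559486, plus strand): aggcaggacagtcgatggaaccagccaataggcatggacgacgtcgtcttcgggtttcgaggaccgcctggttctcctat
Rps6 (chr4:86857348-86857427, minus strand): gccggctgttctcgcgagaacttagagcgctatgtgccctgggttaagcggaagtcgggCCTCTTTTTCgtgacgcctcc
Rplp2 (chr7:141447591-141447670, plus strand): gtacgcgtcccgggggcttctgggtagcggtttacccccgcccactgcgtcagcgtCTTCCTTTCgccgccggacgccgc
Tracts thus stood in the windows of genes that followed the others (Rps6, Rplp2). They also stood in those of genes whose group means spanned over 2-fold (Rps2, Rps26, Rps18, Rpl34). A match is a description of letters and not a mapped start or a bound factor.

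The 86 genes together took 1.683% to 2.557% of the counts of a library. Among females the share was 2.204%, 2.351% and 2.271% in controls and 1.738%, 1.82% and 2.01% after 2,4-BPS, without overlap. It was 2.426%, 2.065% and 2.06% after BPSIP, which reached above and below the controls. After BPS it was 2.143%, 2.003% and 1.918%, each below the lowest control, and after E2 it was 2.211%, 2.557% and 2.359%, overlapping the controls. Among males the libraries labelled male control stood at 1.705%, 1.791% and 1.776%. Males after 2,4-BPS had 2.115%, 1.974% and 2.085% and males after BPSIP 1.927%, 1.875% and 1.847%, all above that group. The highest male shares followed BPS (2.406%, 2.388% and 2.468%), while E2 gave 1.974%, 1.683% and 1.709%, which overlapped the libraries labelled male control. BPS thus went with the highest share among the male groups, and in females with a share below control. The shares rest on library totals. By library totals, the median log2 fold change of females after BPS against control was -0.18 for these genes and -0.09 over all genes. Neither the shares nor a difference between the sexes in them was tested.

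**Figure D1:**
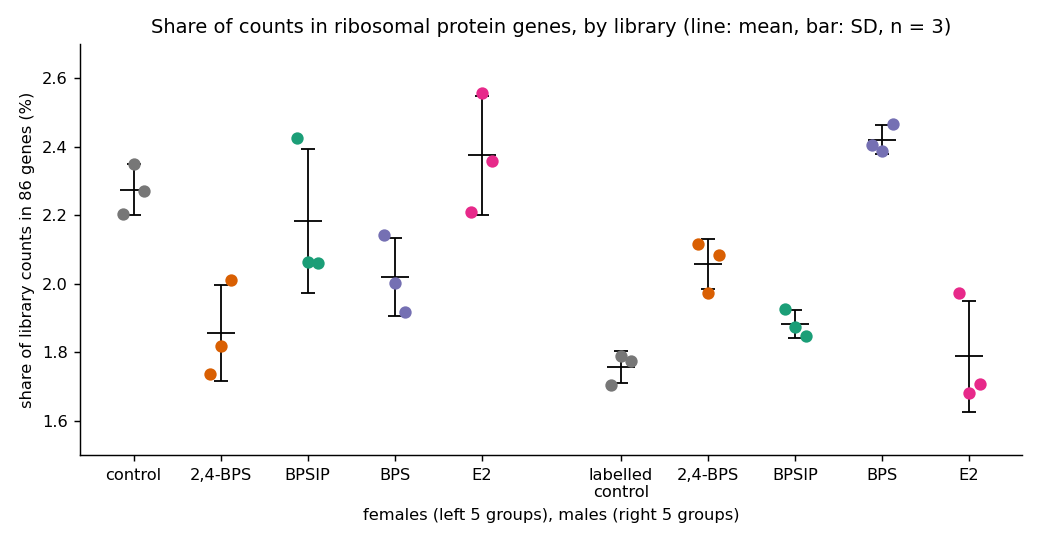
Share of library counts (%) in the 86 ribosomal protein genes, one point per library, for 5 female and 5 male groups; the horizontal line is the mean and the bar the SD of 3 libraries. Males after BPS (2.388% to 2.468%) lie above all other male libraries, and females after 2,4-BPS (1.738% to 2.01%) below all control females.

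Most core genes moved as 1 block. Across the 30 libraries, 60 of 77 had a correlation over 0.7 with the median of the others, with a median r of 0.89, given as a description because all genes share the libraries. Rpl27a, Rpl32, Rpl14, Rpl11 and Rps3 followed the median most closely (r = 0.96). The ratio of the highest to the lowest group mean was under 1.6 for 65 of 77 core genes and had a median of 1.39, against 1.51 over 7659 genes with at least 10 CPM. Within a group the median SD of a core gene was 0.09 on the log2 scale. Relative to its own mean, the median core gene stood at -0.14 (log2) in females after 2,4-BPS, in males after E2 and in the libraries labelled male control. It stood at 0.22 in females after E2 and in males after BPS.

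**Figure D2:**
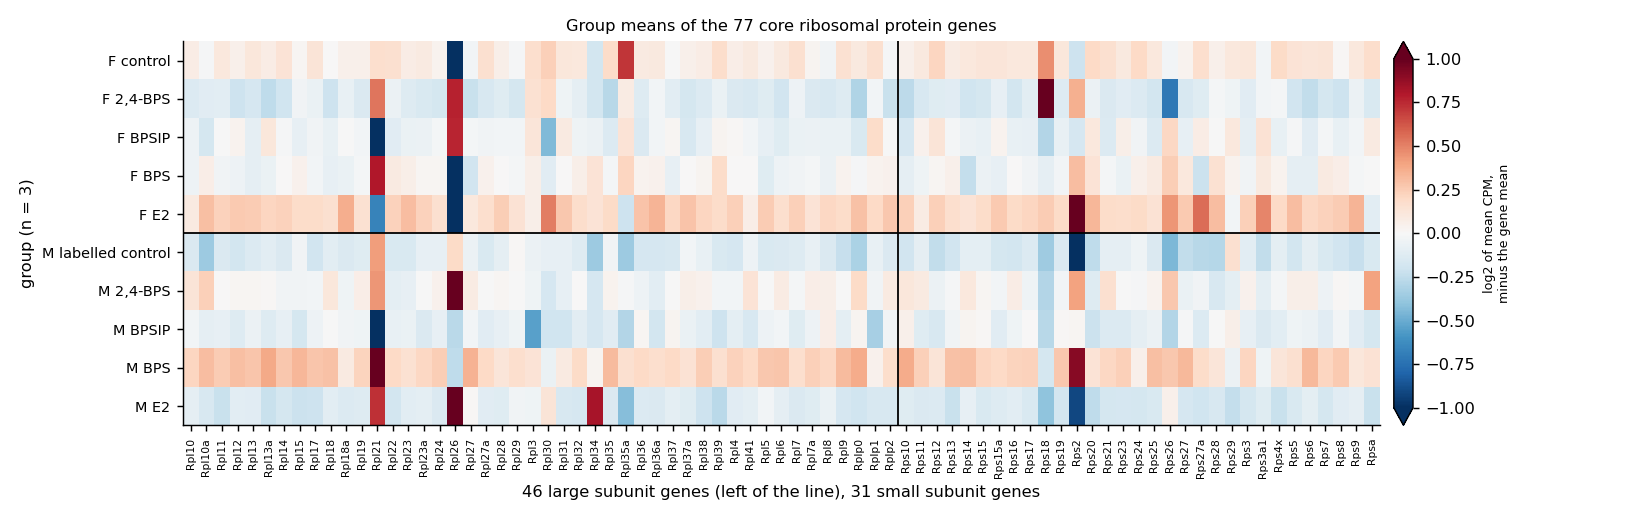
Group means of the 77 core genes (columns, 46 of the large and 31 of the small subunit) in 10 groups (rows), as log2 mean CPM minus the mean of the gene over groups, with colours saturating at 1. Rows are near uniform in colour for most genes, while Rpl21, Rpl26, Rps2, Rps18 and Rps26 break the pattern.

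Of the 77 core genes, 7 had group means that spanned over 2-fold: Rpl21 (26.8-fold), Rps2 (10.6-fold), Rpl26 (7.58-fold), Rps18 (2.97-fold), Rpl34 (2.26-fold), Rps26 (2.23-fold) and Rpl35a (2.19-fold). The share of all genes with such a span was not counted, so this number is not read as low or high. The ones least like the median of the others were Rpl26 (r = -0.53), Rpl34 (0.06), Rps18 (0.10), Rpl21 (0.15) and Rps29 (0.19). Both sets were picked by these values, which are a description.

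Rps2, which lines the path of messenger RNA into the small subunit, had 161, 174 and 172 CPM in control females. It had 243, 241 and 266 CPM after 2,4-BPS, 191, 163 and 168 after BPSIP, 266, 240 and 219 after BPS and 472, 549 and 476 after E2. In males it stood at 46.3, 46.7 and 48.6 CPM in the libraries labelled male control, 261, 249 and 264 after 2,4-BPS, 192, 193 and 209 after BPSIP, 370, 352 and 382 after BPS and 110, 104 and 99.1 after E2. Replicates lay close together and the groups of a sex were mostly apart, so that E2 gave the highest level in females and the lowest of the exposed males.

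Rpl26, a large subunit protein that also binds p53 messenger RNA, had 43.3, 40 and 40.1 CPM in control females, 37.4, 53.9 and 50 after BPS and 39.4, 52 and 52.5 after E2, which overlapped. After 2,4-BPS it had 167, 203 and 192 CPM and after BPSIP 215, 167 and 175 CPM, far above these groups. Males had 130, 129 and 115 CPM in the libraries labelled male control, 239, 241 and 241 after 2,4-BPS, 86.2, 93.2 and 94 after BPSIP, 97.4, 90.9 and 88 after BPS and 338, 296 and 301 after E2. The high groups were therefore 2,4-BPS and BPSIP in females, and 2,4-BPS and E2 in males.

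Rpl21, a large subunit protein, had 11.7, 11.8 and 12.8 CPM in control females and 1.47, 1.61 and 0.95 after BPSIP. The other female groups had 13.2, 19.2 and 14.5 CPM (2,4-BPS), 15.9, 22.7 and 17.8 (BPS) and 5.63, 7.58 and 7.08 (E2). In males BPSIP again gave the lowest level (4.4, 5.3 and 4.89 CPM), against 14.2, 12.4 and 16.6 in the libraries labelled male control, 11.6, 16.6 and 15.6 after 2,4-BPS, 35.2, 37.7 and 35.1 after BPS and 17.6, 17.6 and 18.6 after E2. In both sexes the BPSIP libraries lay below those of every other group.

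Rps18, at the head of the small subunit, had 98.5, 97.8 and 95.6 CPM in control females, 134, 176 and 164 after 2,4-BPS, 65.1, 53 and 54 after BPSIP, 55.4, 72.3 and 71.2 after BPS and 71.8, 86.2 and 93.5 after E2. Male libraries all lay within 52 to 62.7 CPM. Rps26, which contacts messenger RNA near the exit of the small subunit, had its lowest level after 2,4-BPS in females (129, 142 and 133 CPM) against 214, 222 and 216 in controls. Females after BPSIP had 276, 241 and 249 CPM, after BPS 262, 268 and 260 and after E2 272, 326 and 302, all above the controls. Rpl35a, a large subunit protein mutated in Diamond-Blackfan anaemia, had 139, 156 and 144 CPM in control females and at most 113 in every exposed female library. Rpl34 was highest in males after E2 (25.8, 24.6 and 21.9 CPM, against at most 16.5 in all other libraries).

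**Figure D3:**
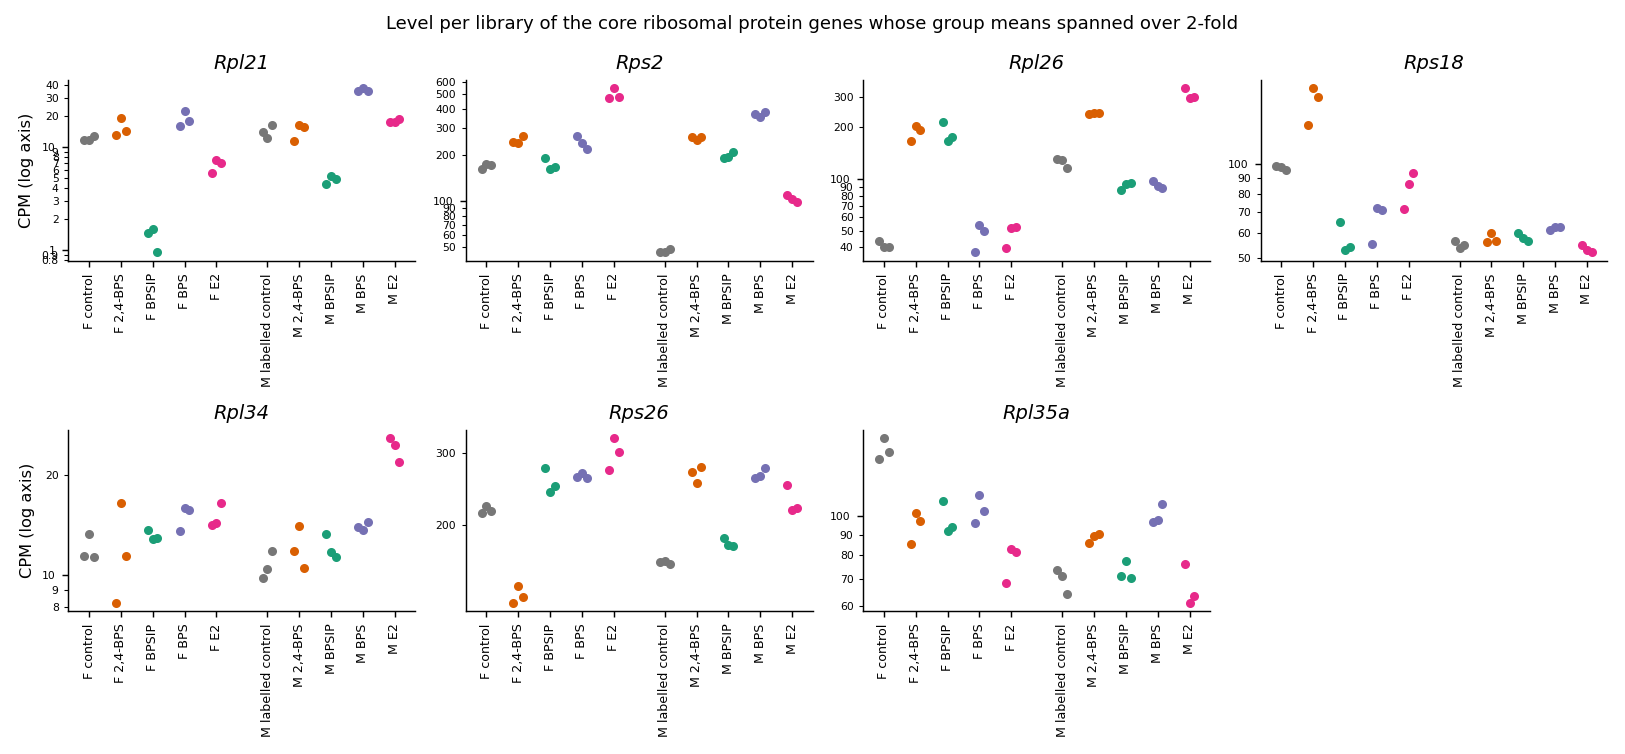
CPM (log axis) of the 7 core genes whose group means spanned over 2-fold, one point per library, for 5 female (F) and 5 male (M) groups. Replicates cluster tightly: Rps2 runs from 46.3 CPM in a library labelled male control to 549 CPM after E2 in females, and Rpl21 is lowest after BPSIP in both sexes.

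Rps27a, which encodes ubiquitin fused to a small subunit protein, was the core gene with the widest spread within groups (SD 0.332 on the log2 scale). Males after BPS had 142, 148 and 253 CPM, males after E2 192, 112 and 113 and females after BPSIP 150, 135 and 220. No comparison of an exposed female group with control called it.

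Exposure to 2,4-BPS was set against control in females. Of the 86 genes, 45 were lower and 4 higher by edgeR's quasi-likelihood test with adjustment over 13874 genes, where 8.42% of all genes were lower and 10.9% higher. The median log2 fold change was -0.20, against 0.00 over all genes, and 23 of 46 large and 21 of 31 small subunit genes were lower. Rplp0, the base of the ribosomal stalk, had 566, 589 and 568 CPM in controls and 422, 427 and 456 after exposure, without overlap (log2 fold change -0.39 ± 0.06, standard error). Rps6 fell from 424, 431 and 434 CPM to 321, 300 and 380 (-0.36 ± 0.07), and Rpsa, also known as the laminin receptor, from 498, 521 and 518 to 382, 406 and 437 (-0.32 ± 0.07). The largest falls were those of Rps26 (-0.68 ± 0.06), Rpl35a (-0.62 ± 0.08) and Rpl35 (-0.46 ± 0.09). Against this, Rpl26 rose 4.57-fold (2.19 ± 0.16, adjusted p = 1.84e-06), Rps18 by 0.71 ± 0.13 and Rps2 by 0.57 ± 0.07. Rpl3, at the catalytic centre, did not pass (-0.01 ± 0.07, interval -0.15 to 0.12). Without control replicate 2 the number lower was 27, without control replicate 3 it was 28, and without exposed replicate 1 it was 22.

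Exposure to BPSIP in females gave 29 lower and 4 higher genes, where 19.2% of all genes were lower and 19.4% higher, with a median of -0.12 against -0.01 over all genes. Scaled by library totals alone, the split was 8 lower and 4 higher. Rpl21 fell from 12.1 to 1.34 CPM on average (-3.16 ± 0.19), Rps18 fell by 0.76 and Rpl30, which controls its own splicing, from 169, 179 and 175 to 115, 104 and 107 CPM (-0.69 ± 0.07). Rpl26 rose as it did after 2,4-BPS (2.17 ± 0.16). Rpl7l1 (0.50 ± 0.06) and Rps26 (0.23 ± 0.06) rose too, although Rps26 had fallen after 2,4-BPS. Of the panel, Rplp0 fell by 0.25, Rps6 by 0.24 and Rps4x, encoded on the X chromosome, by 0.27, while Rplp2 (0.00 ± 0.11) and Rps29 (0.00 ± 0.13) did not pass. The number lower was 15 without control replicate 2 and 13 without either exposed replicate 2 or exposed replicate 3.

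Exposure to BPS in females gave 6 lower and 3 higher genes, where 7.5% of all genes were lower and 9.32% higher, with a median of -0.09 against -0.01. Library totals alone gave 19 lower and 3 higher. Rps18 (-0.54 ± 0.14), Rpl35a (-0.48 ± 0.08) and Rpl30 (-0.34 ± 0.07) fell most, and Rpl21 (0.65 ± 0.15), Rps2 (0.53 ± 0.07) and Rps26 (0.29 ± 0.06) rose. Without exposed replicate 1 the number lower was 11, and the lowest number over libraries left out was 2.

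Exposure to E2 in females gave 17 higher and 3 lower genes, where 10.4% of all genes were higher and 10.6% lower, with a median of 0.12 against -0.01. Library totals alone gave 7 higher and 3 lower. Rps2 rose from 169 to 499 CPM on average (1.56 ± 0.07, adjusted p = 5.31e-17). Rps3a1, which helps to bind initiation factors, rose from 404, 423 and 408 to 555, 636 and 579 CPM (0.51 ± 0.06), and Rps26 by 0.46 ± 0.06. Rpl5, which carries 5S ribosomal RNA, rose by 0.21 ± 0.06 and Rplp0 by 0.19 ± 0.06. Rpl35a fell by 0.92, Rpl21 by 0.84 and Rpsa by 0.28. The number higher was 10 without control replicate 1, 36 without exposed replicate 1 and 9 without exposed replicate 2. These 4 comparisons share their control libraries.

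**Figure D4:**
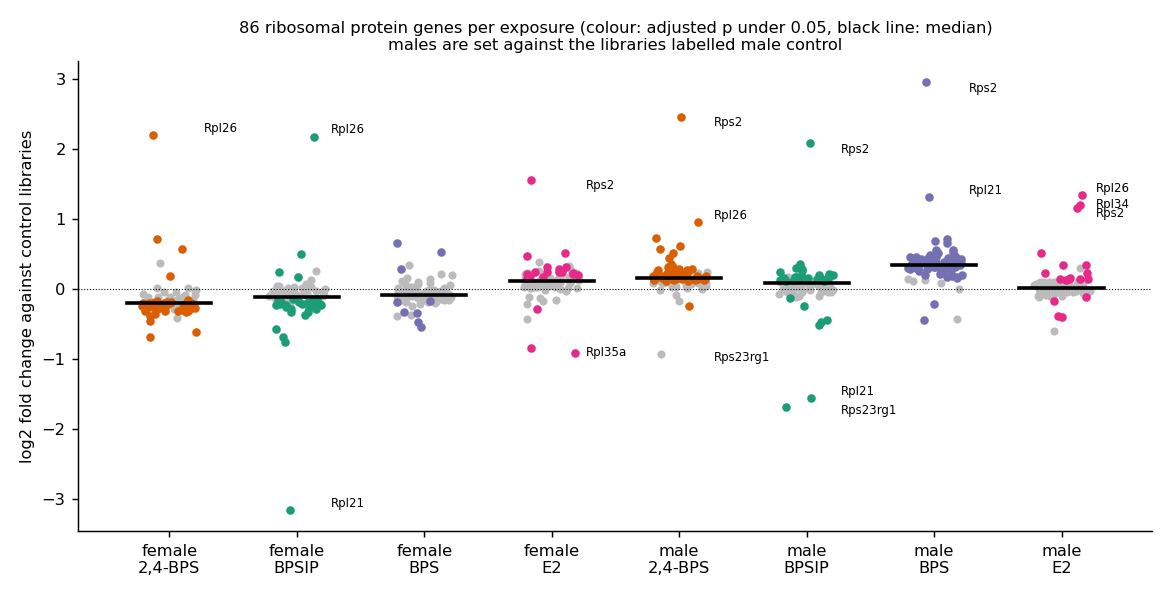
Log2 fold change of each of 86 genes (points) in 8 exposure groups, coloured where the adjusted p is under 0.05, with a black line at the median. Females are set against control females, and males against the libraries labelled male control, which are in doubt. The median is lowest in females after 2,4-BPS (-0.20) and highest in males after BPS (0.34), and Rps2, Rpl26 and Rpl21 lie far from it.

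Other genes of the pathway did not all follow the ribosomal proteins. Of 70 ribosome biogenesis genes, 15 rose and 2 fell in females after 2,4-BPS, 36 and 8 after BPSIP, 28 and 0 after BPS and 23 and 1 after E2, with medians of 0.07, 0.25, 0.20 and 0.19. Of all genes, 10.9%, 19.4%, 9.32% and 10.4% rose and 8.42%, 19.2%, 7.5% and 10.6% fell in these comparisons. Nop56, a core protein of box C/D small nucleolar particles, had 13.2, 11.6 and 12.6 CPM in controls and 24.3, 25.3 and 23.9 after BPSIP (0.97 ± 0.09). Rrp12, which exports pre-ribosomal particles, rose by 0.86 after 2,4-BPS and 1.34 after BPSIP. By these counts, in females after 2,4-BPS and BPSIP more biogenesis genes rose than fell, while more ribosomal protein genes fell than rose.

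Of 22 tested genes listed with an oligopyrimidine start that are not ribosomal proteins, 6 fell and 1 rose after 2,4-BPS, 13 and 2 after BPSIP, 2 and 0 after BPS, and 2 fell and 5 rose after E2. The medians were -0.11, -0.17, -0.06 and 0.10, and the shares of all genes are those given for biogenesis. Eif4b, an initiation factor that helps to unwind messages, had 430, 420 and 429 CPM in control females and 210, 212 and 211 after BPSIP (-1.02 ± 0.05). Of 35 translation factors, 5, 18, 12 and 18 rose and 2, 3, 0 and 2 fell in the same order, with medians of 0.01, 0.18, 0.13 and 0.23. Among 27 genes of growth signalling, 3, 4, 3 and 3 rose and 5, 10, 4 and 2 fell, with medians of 0.01, -0.06, 0.03 and 0.08. Mtor, the kinase at the head of this pathway, fell by 0.44 after 2,4-BPS and 0.66 after BPSIP, while Myc rose after E2 from 5.71, 6.18 and 5.2 to 22.8, 24.1 and 23.3 CPM (2.03 ± 0.12). Of the 78 mitochondrial ribosomal protein genes, 12 fell and 0 rose after 2,4-BPS, 5 and 10 after BPSIP, 2 and 3 after BPS and 4 and 7 after E2, with medians of -0.11, 0.01, 0.01 and 0.00. Fau fell after 2,4-BPS (-0.27 ± 0.07), and Rack1 (-0.18 ± 0.07) did not pass. None of the 11 small nucleolar RNA host genes was tested.

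In bulk liver, fewer cells of a type and less RNA per cell cannot be told apart. The 8 macrophage and Kupffer cell markers, all counted in every library, summed to 908 to 949 CPM in control females, 1250 to 1330 after 2,4-BPS, 1310 to 1490 after BPSIP, 813 to 895 after BPS and 801 to 824 after E2. The 5 proliferation markers summed to 11.7 to 12.4, 17.8 to 22.6, 20.6 to 22.4, 13.3 to 14.6 and 7 to 8.34 CPM in the same order. Both sums were thus highest after 2,4-BPS and BPSIP, the female groups with the most ribosomal protein genes called lower. Of the 8 macrophage and Kupffer cell markers, 8 were called higher after 2,4-BPS and 7 after BPSIP. Of the 5 proliferation markers, 3 and 2 were called higher and 0 lower, while 1 and 2 had negative fold changes. After 2,4-BPS the hepatocyte markers summed to 119000 to 132000 CPM against 104000 to 108000 in controls, and 5 muscle markers to 5.33 to 27.5 against 1.2 to 5.12. Of the 8 hepatocyte markers, 3 were called higher and 0 lower there, 2 had negative fold changes, and the median was 0.055. Of 4 muscle markers tested, 3 were called higher and 0 lower. After BPSIP, 5 neutrophil markers summed to 37.1 to 49.1 CPM (controls 26.8 to 33.3), 7 T and NK cell markers to 14.5 to 17.7 (9.94 to 10.9) and 5 endothelial markers to 245 to 255 (325 to 327). Of the endothelial markers, 3 were called lower and 1 higher. Of 4 neutrophil markers tested, 3 were called higher and 0 lower, and 1 had a negative fold change. Of the 7 T and NK cell markers, 3 were called higher and 0 lower, and 2 had negative fold changes. The part of these lists in the result was not tested. Short genes outside the set, of a length up to the upper quartile of the set, had medians of -0.09, -0.04, 0.01 and -0.06 in the 4 comparisons, and the part of transcript length was not tested.

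The 3 bisphenols were compared pairwise in each sex at the same dose and age, 6 pairs in all, with p values adjusted over the genes of a fit and not over the pairs. In females, 2,4-BPS against BPS gave 16 lower and 3 higher genes, where 9.23% of all genes were lower and 10.2% higher, with a median of -0.14. In 2,4-BPS, where 1 hydroxyl group is moved, Rpl26 (1.99 ± 0.16) and Rps18 (1.25 ± 0.14) were higher. Lower were Rps26 (-0.97 ± 0.06), Rplp0 (-0.30 ± 0.06) and Rpl22l1 (-0.32 ± 0.10). Rpl5 had -0.00 ± 0.06 (interval -0.12 to 0.12) and Rpl7 -0.02 ± 0.06 (interval -0.14 to 0.09), so a difference above these bounds was not found. The number lower was 6 without replicate 1 of 2,4-BPS, 25 without its replicate 3, 9 without replicate 1 of BPS and 7 without its replicate 2.

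BPSIP against BPS, which differ by an isopropyl ether, gave 9 lower and 3 higher genes in females, where 20.1% of all genes were lower and 19.2% higher, with a median of -0.05. Library totals alone turned this to 4 lower and 19 higher. Rpl26 (1.97 ± 0.16) and Rpl7l1 (0.34 ± 0.06) were higher, and Rpl21 (-3.81 ± 0.18) and Rpl22l1 (-0.58 ± 0.10) lower. Rpl10 (interval -0.14 to 0.10), Rpl11 (-0.10 to 0.14) and Rpl5 (-0.09 to 0.15) did not pass. Without replicate 1 of BPSIP the number lower was 18. 2,4-BPS against BPSIP gave 13 lower and 5 higher genes, where 17.3% of all genes were lower and 18.3% higher, and 43 lower and 4 higher by library totals. Rpl21 (3.54 ± 0.18) and Rps18 (1.47 ± 0.14) were higher after 2,4-BPS, and Rps26 (-0.92 ± 0.06) and Rpl13a (-0.36 ± 0.08), known from the interferon response, lower. The number lower was 6 without replicate 1 of 2,4-BPS and 4 without replicate 1 of BPSIP.

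In males the pairs do not touch the libraries labelled male control. BPSIP against BPS gave 72 lower genes and 1 higher, where 16.8% of all genes were lower and 18.6% higher, with a median of -0.29 against 0.00 over all genes and -0.20 over the short genes outside the set. The count lower stayed between 69 and 75 whichever library was left out. Hepatocyte markers summed to 73500 to 75300 CPM after BPSIP and 63500 to 65200 after BPS, endothelial markers to 310 to 326 and 228 to 238, and neutrophil markers to 4.89 to 9.03 and 16.3 to 19.7. Their part, and that of transcript length, was not tested. Rpl21 (-2.86 ± 0.12) and Rps2 (-0.87 ± 0.05) were lowest, and Rpl3 had 179, 172 and 175 CPM against 283, 290 and 267 after BPS (-0.65 ± 0.04). Rpl13a (-0.49 ± 0.05), Rps6 (-0.36 ± 0.04), Rplp0 (-0.33 ± 0.04) and Rpl11 (-0.31 ± 0.04) were lower too. Rps29 alone was higher (0.14 ± 0.04), with 243, 243 and 245 against 233, 219 and 224 CPM. Rpl26 had 0.01 ± 0.05 and did not pass.

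Between 2,4-BPS and BPS in males, 58 genes were lower and 2 higher, where 12.3% of all genes were lower and 15.2% higher, with a median of -0.18. Rpl26 (1.40 ± 0.05) and Rpsa (0.27 ± 0.04; 607, 596 and 599 against 506, 504 and 501 CPM) were the higher ones, and Rpl21 (-1.28 ± 0.11) and Rps2 (-0.49 ± 0.05) the lowest. Between 2,4-BPS and BPSIP, 28 were higher and 2 lower, where 15.8% of all genes were higher and 15.5% lower, with a median of 0.10. Rpl21 (1.58 ± 0.12) and Rpl26 (1.40 ± 0.05) led, and Rps28 (-0.17 ± 0.05) and Rps29 (-0.16 ± 0.05) were lower. Without replicate 3 of BPSIP the number higher was 17. By median level in males, BPS thus stood first, then 2,4-BPS, then BPSIP. The short genes outside the set stood in the same order against the libraries labelled male control (below). The part of transcript length was not tested.

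Exposed males were then set against the libraries labelled male control. BPS gave 77 higher and 2 lower, where 20.6% of all genes were higher and 22.7% lower, with a median of 0.34, and 42 of 46 large and 28 of 31 small subunit genes were higher. 2,4-BPS gave 55 higher and 1 lower, where 18.9% of all genes were higher and 19.4% lower, with a median of 0.15. BPSIP gave 27 higher and 7 lower, where 17.4% of all genes were called in each direction, with a median of 0.08, and the number higher was 17 without control replicate 1. Without exposed replicate 1 it was 14 higher and 10 lower. E2 gave 14 higher and 4 lower, where 17.2% were higher and 16.4% lower, with a median of 0.01. For E2 the number higher was 9 without control replicate 1 or exposed replicate 1, and the number lower 15 without the latter. The short genes outside the set had medians of 0.22 after BPS, 0.16 after 2,4-BPS, 0.01 after BPSIP and -0.02 after E2, and the part of transcript length was not tested.

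Rplp0 had 431, 428 and 432 CPM in the libraries labelled male control and 680, 697 and 708 after BPS (0.68 ± 0.04), without overlap. Rps2 was higher after 2,4-BPS (2.46 ± 0.05), BPSIP (2.08 ± 0.05), BPS (2.95 ± 0.05) and E2 (1.16 ± 0.05). Rps29 was lower after 2,4-BPS (-0.25 ± 0.04), BPS (-0.23 ± 0.04) and E2 (-0.39 ± 0.04). Rpl26 (1.34 ± 0.05) and Rpl34 (1.19 ± 0.11) led after E2. The hepatocyte markers summed to 108000 to 113000 CPM in the libraries labelled male control and to 60000 to 82800 in exposed males, and proliferation markers to 15.6 to 19.1 against 2.87 to 7.76 CPM. The 8 hepatocyte markers did not fall as a set. After 2,4-BPS, 2 were called higher and 4 lower, with a median log2 fold change of -0.10. After BPSIP, 2 were called higher and 4 lower, with a median of -0.07. The part of these differences in the result was not tested. When each exposed male library was mixed with a female control library at a share of 43.5%, taken from the Y-linked genes, 80 genes were higher after BPS, 74 after 2,4-BPS, 54 after BPSIP and 52 after E2. In the same order, 2, 1, 5 and 3 were lower. The female controls mixed in held a mean share of 2.275% in ribosomal protein genes, against 1.757% in the libraries labelled male control. Mixing by itself therefore moves these counts, and nothing is concluded from them.

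E2 was set against the mean of the 3 bisphenols in each sex. In females 64 genes were higher and 3 lower, where 15.9% of all genes were higher and 16.9% lower, with a median of 0.27. Rps2 (1.18 ± 0.05) and Rps27a (0.63 ± 0.17) led, and Rpl26 (-1.31 ± 0.14) and Rpl35a (-0.36 ± 0.07) were lowest. Libraries overlapped for Rps27a, with 200, 254 and 248 CPM after E2 and 150, 135 and 220 after BPSIP. In males 66 were lower and 5 higher, where 14.2% of all genes were lower and 17.3% higher, with a median of -0.18. There Rps2 (-1.34 ± 0.04) and Rplp0 (-0.38 ± 0.03; 495, 463 and 446 CPM after E2) were lowest, and Rpl26 (1.32 ± 0.04) and Rpl34 (0.94 ± 0.09) highest. The difference between the sexes in this contrast was not tested. Short genes outside the set also had unlike medians across the male exposures (given above), and the part of transcript length was not tested.

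Whether the bisphenols differed from each other in the same way in females and males was tested on the difference itself, as the female minus the male log2 fold change, in the fit of all 30 libraries. For BPSIP against BPS, 46 genes were higher and 1 lower, where 21.1% of all genes were higher and 19.3% lower, with a median of 0.25 against 0.05 over all genes. Library totals alone gave 72 higher and 1 lower. Rpl3 (0.73 ± 0.08), Rpl13a (0.69 ± 0.10), Rpl7l1 (0.66 ± 0.08), Rpsa (0.41 ± 0.08), Rpl11 (0.36 ± 0.07) and Rpl5 (0.35 ± 0.07) were among them, and Rpl26 (2.00 ± 0.17) led, with Rps23rg1 (1.94 ± 0.55), which is near the lower limit. Rpl21 was lower (-0.91 ± 0.23). Without replicate 1 of BPSIP in females the number higher was 30. For 2,4-BPS against BPSIP, 37 were lower and 3 higher, where 18.6% of all genes were lower and 18.4% higher, with a median of -0.20, and 56 lower and 3 higher by library totals. Rps26 (-1.48 ± 0.08) and Rps23rg1 (-1.44 ± 0.56) were lowest and Rpl21 (1.94 ± 0.23) and Rps18 (1.47 ± 0.14) highest. Without replicate 1 of 2,4-BPS in females or replicate 3 of BPSIP in males that number was 23, and without replicate 1 of BPSIP in females 17. For 2,4-BPS against BPS, 10 were higher and 2 lower, where 10.4% of all genes were higher and 9.91% lower.

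**Figure D5:**
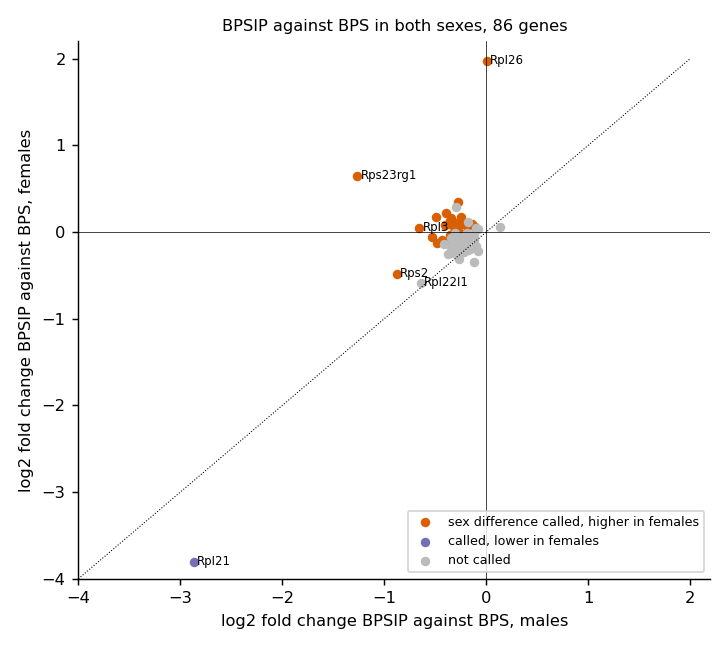
Log2 fold change of BPSIP against BPS in males (horizontal) and females (vertical) for 86 genes, coloured where the test of the female minus male difference passed; the dotted line marks equal values. Most points lie left of 0 and near 0 on the vertical axis (medians -0.29 in males and -0.05 in females), and Rpl21 is far down in both sexes.

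Across all exposures, 20 genes were higher and 16 lower in exposed females than in exposed males, where 28.5% of all genes were higher and 29.9% lower, with a median of 0.00. Library totals alone gave 30 higher and 9 lower. Rps23rg1 (1.07 ± 0.19) and Rps18 (0.55 ± 0.05) were higher in females, and Rpl21 (-1.02 ± 0.08) and Rpl26 (-0.75 ± 0.06) lower.

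Paralogs did not always move with their partners. In females after BPSIP, Rpl7 fell by 0.23 while Rpl7l1 rose, with 86.4, 81.2 and 77.2 CPM against 56.6, 58.8 and 57.6 in controls. Rpl22 and Rpl22l1 both fell there (-0.27 ± 0.06 and -0.38 ± 0.10). Rpl36a rose after E2 (0.24 ± 0.07), and Rpl36al had 0.06 ± 0.06 and did not pass. Rps27l, a p53 target, fell after 2,4-BPS (-0.26 ± 0.09) and BPSIP (-0.29 ± 0.09), where Rps27 had -0.18 ± 0.09 and -0.12 ± 0.09 and did not pass. The differences between partners were not tested.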

How the data were processed

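Liver RNA-seq of 30 mouse offspring was analysed, 10 groups of 3 libraries. The authors deposited raw counts per gene symbol and FPKM over the same symbols. HISAT2, HTSeq, DESeq2 and R 3.2.0 are named per the submitters' processing notes, with no version but that of R. Not given in the sources used here: genome build, annotation and strandedness. The deposited FPKM equal counts divided by library total and gene length (largest relative deviation 3.79e-07).

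Tests on the counts used edgeR 4.0.16 (R 4.3.3): filterByExpr by group, TMM factors (0.928 to 1.12), robust glmQLFit and glmQLFTest, Benjamini-Hochberg adjustment over all genes of a fit, with 0.05 as threshold. Each sex had its own fit of 15 libraries (13874 genes in females, 13474 in males), and all 30 shared one for contrasts of both sexes (14131 genes). Common biological coefficients of variation were 0.0915, 0.0873 and 0.0899. Printed levels are TMM-scaled CPM from the fit of 30 libraries, ± is the standard error, and intervals are 95%. The script was tested on simulated data.

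The members, lists and tests were chosen with earlier results of these data known. Named genes are the 3 (female exposures) or 2 (other comparisons) largest changes each way that passed, a panel chosen for role, and genes at the lower limit. Where 2 groups were compared, the largest changes also had to be without overlap. Contrasts of more than 2 groups were not screened for overlap. Genes whose group means spanned over 2-fold, and Rps27a for its spread, were picked from their values. Alternatives were RLE factors, library totals, no filter, DESeq2 1.42.0, the replicate number as a block, each library left out, and the mixed comparison for males. Genes of the other lists are named where their p is among the 3 smallest of their list in that comparison. The result of 1 listed gene is not reported here.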

Additional observations from a re-analysis of the deposited data

Results flagged for a closer look

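The contrasts of the bisphenols were tested for a difference between females and males (edgeR, fit of 30 libraries, female minus male). For BPSIP against BPS, 46 members were higher and 1 lower, where 21.1% of all genes were higher and 19.3% lower. Rpl26 stood at 2.00, Rps23rg1 at 1.94 and Rpl21 at -0.91 (log2). For 2,4-BPS against BPSIP, 3 were higher and 37 lower, where 18.4% of all genes were higher and 18.6% lower. Rpl21 stood at 1.94, Rps18 at 1.47, Rps26 at -1.48 and Rps23rg1 at -1.44. For 2,4-BPS against BPS, 10 were higher and 2 lower, where 10.4% of all genes were higher and 9.91% lower. The count higher was thus near the share of all genes, and the count lower below it. Rps18 stood at 1.37, Rpl21 at 1.03, Rps26 at -0.97 and Rpsa at -0.41.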

How the results depend on the processing

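Of the single-gene values recomputed, none that had passed the test changed direction under these alternatives, but some no longer passed. Over the refits with a library left out, 1246 values kept their result, 72 lost their call and 14 gained one. By library totals, 170 kept it, 11 lost it and 10 gained it. Each other alternative lost at most 2 calls. RLE factors, DESeq2 and the replicate block left every count of members called within 1.5 times; no filter gave 2 lower genes instead of 1 for BPSIP against BPS, female minus male. Scaling by library totals moved most. In females it gave 8 lower after BPSIP (29 with TMM), 19 lower after BPS (6), 7 higher after E2 (17), 43 lower for 2,4-BPS against BPSIP (13), and 19 higher and 4 lower for BPSIP against BPS (3 and 9). In the last case the median of all genes moved to 0.14 (log2) and that of the members to 0.09, still below it; for 2,4-BPS against BPSIP the medians were -0.15 and -0.24. It also gave 0 higher for BPSIP against BPS in males (1), 9 lower for exposed females against males (16), 72 higher for the female minus male difference of BPSIP against BPS (46, all genes at 0.23) and 56 lower for that of 2,4-BPS against BPSIP (37, all genes at -0.15). The mixed comparison gave 54 higher after BPSIP (27) and 52 after E2 (14) in males. The mixing itself moves these counts, because the female control libraries mixed in held a larger share of these genes.

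Replicate numbers did not pair the samples: same-numbered deviations correlated between -0.137 and 0.0912, with 0 of 3 pairs over 0.1 in every comparison. With the replicate number as a block, 40 genes were lower after 2,4-BPS in females, 26 after BPSIP and 4 after BPS, 18 were higher after E2, and 73 were lower for BPSIP against BPS in males.

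Leaving out each library in turn gave these ranges of genes called. In females, 3 to 4 higher and 22 to 48 lower after 2,4-BPS, 3 to 4 higher and 13 to 42 lower after BPSIP, 3 higher and 2 to 11 lower after BPS, 9 to 36 higher and 3 to 4 lower after E2. In males against the libraries labelled male control, 42 to 56 higher and 1 to 2 lower after 2,4-BPS, 14 to 30 higher and 5 to 10 lower after BPSIP, 75 to 78 higher and 2 lower after BPS, 9 to 18 higher and 3 to 15 lower after E2. For pairs and contrasts, 3 higher and 6 to 25 lower for female 2,4-BPS against female BPS, 2 to 6 higher and 8 to 18 lower for female BPSIP against female BPS, 4 to 5 higher and 4 to 18 lower for female 2,4-BPS against female BPSIP, 2 higher and 46 to 56 lower for male 2,4-BPS against male BPS, 0 to 1 higher and 69 to 75 lower for male BPSIP against male BPS, 17 to 35 higher and 1 to 2 lower for male 2,4-BPS against male BPSIP, 48 to 69 higher and 3 to 4 lower for female E2 against the female bisphenol mean, 4 to 5 higher and 54 to 73 lower for male E2 against the male bisphenol mean, 17 to 24 higher and 14 to 22 lower for exposed females against exposed males, 7 to 13 higher and 2 lower for 2,4-BPS against BPS (female minus male), 30 to 55 higher and 1 to 2 lower for BPSIP against BPS (female minus male), 3 higher and 17 to 44 lower for 2,4-BPS against BPSIP (female minus male).

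As a share of FPKM, in which short genes weigh more, the members took 5.64% in control females, 4.71% after 2,4-BPS, 5.52% after BPSIP, 5.07% after BPS and 5.93% after E2; in males 4.34% in the libraries labelled male control, 4.9%, 4.58%, 5.62% and 4.34%. Core genes alone took 1.84% of counts after BPSIP and 2.37% after BPS in males. With 3 libraries a group, counts of calls near the threshold move readily.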
